A study of Mus musculus with 51 samples.

Results

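Cholesterol synthesis genes and the genes of the SREBP (sterol regulatory element binding protein) system that controls them were followed through 14 groups of sorted mouse epithelial cells. The 26 members were taken by name from the 52636 genes of the count table, by a rule that uses no measured value. Sterol supply was represented by 8 members (Acat2, Hmgcs1, Mvk, Pmvk, Mvd, Idi1, Fdps and Ggps1) and the squalene and lanosterol steps by 3 (Fdft1, Sqle and Lss). Another 9 act in the late steps that turn lanosterol into cholesterol (Cyp51, Tm7sf2, Lbr, Msmo1, Nsdhl, Hsd17b7, Ebp, Sc5d and Dhcr7). The regulators were 5 (Srebf1, Srebf2, Scap, Insig1 and Insig2), and Stard4 carries sterol between membranes. All 26 are annotated as protein coding in GENCODE M21, all passed the filter on low counts in each of 16 comparisons, and the smallest count of any member in any library was 10.

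Total RNA of sorted cells was sequenced in 51 libraries. SmoM2 denotes Smoothened locked in its active state, the membrane protein that switches on Hedgehog signalling, and Krt5 marks basal cells of squamous epithelium, so that the Krt5-SmoM2 genotype drives the pathway there. The oesophageal groups were wild type (WT, n = 6, strain CD1, EpCAM-low gate), Krt5-SmoM2 (SmoM2, n = 6, CD1, EpCAM-high gate) and Krt5-SmoM2-Sox9fl/fl (Sox9cKO, n = 4, EpCAM-high, strain not labelled). Krt5-SmoM2-Krt8YFP mice of mixed genetic background gave EpCAM-high cells with the Krt8 reporter (K8YFP+, n = 3) and without it (K8YFP-, n = 3). Krt5-SmoM2 cells labelled 3w and 7w were each sorted EpCAM-high and EpCAM-low (n = 4 in each of 4 groups). The labels give neither their strain nor the event from which weeks were counted. Krt8YFP mice, which carry no SmoM2, gave embryonic oesophagus at E13.5 (n = 2), sorted on EpCAM together with YFP. They also gave stomach (n = 2) and gut (n = 2), sorted on YFP alone, and cells of the squamocolumnar junction sorted EpCAM-high, the columnar ones with YFP (n = 4) and the squamous ones YFP-negative (n = 3). The Krt8YFP groups were of mixed genetic background, except that no strain is labelled for the junction squamous cells. The labels name no ages for the adult mice and no separate animals behind replicates, so p-values measure the spread between libraries, which may be technical. In WT against SmoM2 the gate differs along with the genotype, and their parts in any difference cannot be told apart. Raw names of the libraries open with a number whose meaning is not labelled. It is shared by the reporter groups, by the gates of 3w, by those of 7w and by gut and stomach, and in part by Sox9cKO and SmoM2 and by embryo and WT. It differs between SmoM2 and WT, between 3w and 7w, between the time series and WT, between the junction groups and between K8YFP+ and columnar cells, where it and the group cannot be told apart.

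Cells make cholesterol from acetyl-CoA through mevalonate, isoprenoid diphosphates, squalene and lanosterol. SREBP-2, the product of Srebf2, switches on most genes of this route, and SREBP-1, the product of Srebf1, acts more on fatty acid synthesis. When membrane sterol falls, Scap escorts the SREBP precursors from the endoplasmic reticulum to the Golgi, where proteases free the transcription factor. When sterol is plentiful, Insig1 and Insig2 hold Scap back, and Insig1 is itself an SREBP target. In squamous epithelium, cholesterol is a building block of the barrier lipids of differentiating cells, and cholesterol also binds and modifies Smoothened.

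Library totals were 1.61 to 12.3 M counts (M for mega), lowest in the K8YFP+ cells (1.61 to 6.71 M, against 8.53 to 9.34 M in K8YFP-). Mitochondrial genes took up to 19.2% of the counts in gut and 3.09 to 7.38% in K8YFP+, against 2.20 to 2.28% in K8YFP-. WT replicates 3 and 5, and 4 and 6, were nearer to each other (chi-square per degree of freedom 1.92 and 2.47) than other WT pairs (11.0 to 35.6). The raw names of each pair differ in their leading number alone, and the labels do not say whether a pair comes from 1 animal, so that WT may hold 4 rather than 6 independent samples. All were kept, with the pairs summed as an alternative. WT replicate 2 stood at the low end and WT replicate 1 at the high end of the summed members, and of summed squamous differentiation markers (10677 and 23643 CPM, that is counts scaled to a library total of 1 M). The targeted gene Sox9 was at 51.7, 45.7, 127 and 45.8 CPM in Sox9cKO and at 72.7 to 194 CPM in SmoM2. The library labelled Sox9cKO replicate 3 was thus within the SmoM2 range. Fewer cells of a type and less RNA per cell cannot be told apart in such bulk samples.

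The summed level of the 26 members marked the K8YFP+ cells as the highest and the 3w cells as the lowest. It was 3896 to 4858 CPM in K8YFP+ against 2408 to 3384 CPM in K8YFP-, with no overlap. In the time series it was 1279 to 1426 CPM in 3w EpCAM-high, 1368 to 1463 in 3w EpCAM-low, 2204 to 2862 in 7w EpCAM-high and 2680 to 3590 CPM in 7w EpCAM-low cells. WT spanned 1493 to 3238 CPM, with its middle libraries at 2573 to 2711, and so overlapped the SmoM2 range of 2147 to 3019 CPM. The remaining groups lay between 1594 CPM in gut and 3060 CPM in Sox9cKO.

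**Figure D1:**
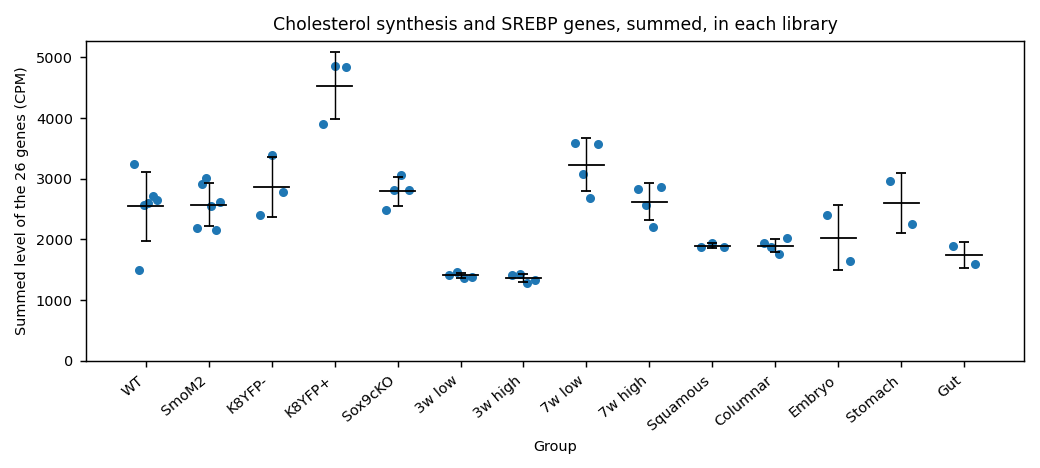
Summed CPM of the 26 cholesterol synthesis and SREBP genes, with 1 point per library, groups along the horizontal axis and bars for mean ± SD. The 3 K8YFP+ libraries lie at 3896 to 4858 CPM and the 8 libraries of 3w lie at 1279 to 1463 CPM.

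Per kilobase of merged exons, Hmgcs1 (chr13:119690379-119708260), which makes the HMG-CoA that feeds mevalonate, had the highest level of the 26 in all 14 groups. Its level ran from 49.7 ± 3.49 CPM per kb (mean ± SD) in 3w EpCAM-high to 194 ± 35.5 in K8YFP+, with 110 ± 32.4 in WT. Srebf2 (chr15:82147181-82205379) ranked from 2 to 7 among the 26 in every group, and the lanosterol demethylase Cyp51 from 2 to 5. The sterol reductase Tm7sf2 (chr19:6062821-6068373) was the lowest of the 26 in 8 groups, at 2.33 ± 0.61 CPM per kb in WT. The lanosterol synthase Lss ranked from 20 to 26, but its merged exons of 10787 bases spread its reads over a long model. The ranks of Insig1 ran from 2 to 16 and those of Scap from 6 to 24, so these regulators moved more within the order than Hmgcs1 did. The models of 11 members overlap another annotated gene, and with the strand setting of the counting not stated their reads are uncertain to that extent. The partner is on the opposite strand for Hmgcs1, Idi1, Lss, Scap, Fdft1 (Ctsb), Cyp51 (Akap9), Ggps1 (Arid4b), Lbr (Dnah14) and Srebf1 (Rai1), and on the same strand for Fdps and Tm7sf2 (Vps51).

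The upstream sequences of Hmgcs1, the most abundant member, and of Srebf2, the factor that acts on the route, are shown because both carry a sterol regulatory core or most of it. RefSeq windows (GRCm38.p6, from 250 bases before to 50 after the annotated start) were given for 22 of the 26 members, the others being Fdft1, Sqle, Fdps and Stard4. Windows were searched on both strands for TCACNCCAC, the core of a sterol regulatory element, for CCAAT, the NF-Y box, and for GGGCGG, the Sp1 box. No motif overlaps another in the stretches printed below, both on the plus strand and outside the annotated gene. Capitals mark the sterol core and the NF-Y box, which reads ATTGG where it lies on the other strand.
Hmgcs1, chr13:119690151-119690270, 200 to 81 bases before the RefSeq start: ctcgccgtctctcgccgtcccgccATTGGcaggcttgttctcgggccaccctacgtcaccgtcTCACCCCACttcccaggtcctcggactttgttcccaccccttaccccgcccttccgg
Srebf2, chr15:82147069-82147180, 200 to 89 bases before the RefSeq start: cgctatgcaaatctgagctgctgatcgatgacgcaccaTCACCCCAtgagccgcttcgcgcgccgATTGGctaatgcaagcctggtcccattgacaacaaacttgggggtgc
The core begins 137 bases before the RefSeq start of Hmgcs1 and 162 bases before that of Srebf2. These starts differ from the GENCODE gene starts given above, and the Srebf2 stretch ends directly before the GENCODE gene. Some genes have several windows, and a gene was counted where any of its windows held the motif. The full core was found for 1 of the 22 members (4.55%), Hmgcs1, and for 1.44% of 27025 genes. Srebf2 holds it without its last base. That shorter form, TCACNCCA, was added after the values were seen, and it was found for 3 members (13.6%, Hmgcs1, Msmo1 and Srebf2) against 4.97% of all genes. CCAAT was found for 20 of 22 members (90.9%) against 41.1% of all genes, and GGGCGG also for 20 of 22 against 38.2%. Among the 11084 genes with a mean of at least 1 CPM these shares were 42.3% and 65.5%. A match describes letters in a window and does not show that a factor binds there.

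**Figure D2:**
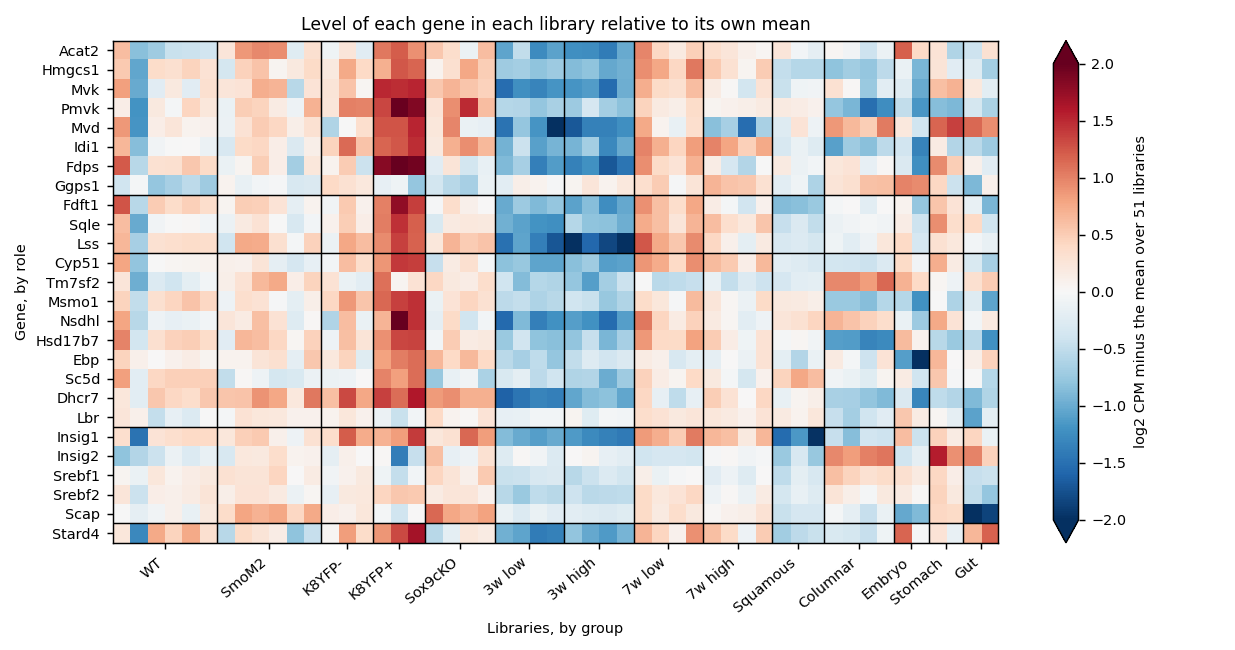
Each member's log2 CPM minus its mean over all 51 libraries (colour), with genes in rows ordered by role and libraries in columns by group. Most enzyme rows are high in K8YFP+ and low in both 3w groups, whereas Insig2 is high in the junction columnar cells, stomach and gut.

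SmoM2 against WT asks what active Smoothened, together with the change of gate, does to these genes in the oesophagus. By edgeR's quasi-likelihood test with Benjamini-Hochberg adjustment over all genes, 4 members rose and 1 fell at an adjusted p under 0.05, while 26.2% of all genes rose, 23.3% fell and 49.5% passed in either direction. The median log2 fold of the 26 was -0.03, beside 0.01 over all genes. All 6 tested Hedgehog genes rose, with a median log2 fold of 6.15.

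Scap (chr9:110333288-110384950), the SREBP escort, was at 171, 218 and 228 CPM (lowest, median and highest) in SmoM2 and at 117, 129 and 150 CPM in WT. The groups did not overlap, which held for 1 of the 26 members and for 26% of all genes. Scap rose by 0.53 ± 0.09 on the log2 scale (SE, adjusted p = 0.000142). Sc5d, the sterol desaturase of the next-to-last step, was at 56.7, 69.0 and 80.6 CPM in SmoM2 and at 68.5, 111 and 141 CPM in WT. It fell by 0.79 ± 0.14 (adjusted p = 0.000235), and overlapped WT only through WT replicate 2. The other calls were smaller relative to their spread. Tm7sf2 was at 13.1, 15.5 and 20.4 CPM in SmoM2 against 6.10, 10.3 and 14.2 in WT (log2 fold 0.52 ± 0.17, adjusted p = 0.0223). Acat2, the cytosolic thiolase that starts the route, was at 15.2, 27.7 and 35.2 CPM against 10.1, 13.3 and 27.6 (0.72 ± 0.25, adjusted p = 0.0264). Insig2 (chr1:121304353-121332589) was at 17.0, 23.5 and 27.0 CPM against 12.2, 16.7 and 19.6 (0.36 ± 0.12, adjusted p = 0.0264). These 3 pairs of groups overlapped.

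The transcription factors themselves did not pass in this comparison. Srebf2 had a log2 fold of -0.09 ± 0.11 and Srebf1 of 0.02 ± 0.09. The feedback target Insig1 was at -0.02 ± 0.23 and Hmgcs1 at -0.12 ± 0.21. Scap and Sc5d passed in all 19 other settings tried. The number of members called ran from 2 without SmoM2 replicate 4 and 3 without WT replicate 3 or WT replicate 4 to 8 without WT replicate 2, and it was 3 with the near-identical WT libraries summed. Without WT replicate 2, Fdps, Fdft1, Msmo1 and Stard4 were called lower and Ggps1 higher, whereas Acat2 and Insig2 lost their calls. Over the 19 settings Acat2 lost its call in 9, Insig2 in 6 and Tm7sf2 in 4. Markers of squamous differentiation differed along with the groups (3 of 6 lower in SmoM2, summed 5015 to 8538 CPM against 10677 to 23643 in WT), and their part in the result was not tested.

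The lists of neighbouring lipid genes are read against the 49.5% of all genes called. Of 11 tested genes of sterol efflux and storage, 8 rose and 1 fell, led by Soat1, which esterifies cholesterol (log2 fold 4.77), the lysosomal lipase Lipa (1.49) and the sterol carrier Stard5 (1.91). Of the 10 genes of isoprenoid branches 8 fell, among them the prenyltransferase subunit Rabggtb (-0.84), Dhdds (-0.51) and Coq2 (-0.49). Among 13 genes of fatty acid synthesis 3 rose, the desaturases Scd1 (3.55), Fads1 (1.34) and Fads2 (0.87), and 2 fell, a share of calls below that of all genes.

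Within the SmoM2 oesophagus, cells with and without the Krt8 reporter were compared in mice of 1 genotype. Here 19 of the 26 members were higher in K8YFP+ cells and 0 were lower, while 13.1% of all genes were called higher, 6.83% lower and 19.9% in either direction. The median log2 fold of the members was 1.16 (2.23-fold), beside -0.03 over all genes. By role, 7 of 8 sterol supply genes, all 3 squalene and lanosterol genes, 7 of 9 late-step genes, 1 of 5 regulators and Stard4 rose. In CPM, 17 members were higher in every K8YFP+ library than in every K8YFP- library, against 12% of all genes, and 3 (Scap, Ggps1 and Lbr) were lower in every K8YFP+ library, against 40.8%.

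Fdps (chr3:89093588-89101959), which makes farnesyl diphosphate at the branch point to squalene, was at 257, 374 and 277 CPM in K8YFP+ and at 76.9, 104 and 54.4 CPM in K8YFP-. Its rise was the largest of the 26, at 2.36 ± 0.29 on the log2 scale (5.15-fold, adjusted p = 0.00325). Sc5d (chr9:42251595-42264256) was at 159, 141 and 173 CPM against 73.2, 74.1 and 80.5 (1.44 ± 0.12, adjusted p = 0.00246). It had the smallest adjusted p of the members, with tight values in both groups. The mevalonate kinase gene Mvk was at 49.5, 48.6 and 50.1 CPM against 20.9, 25.9 and 18 (1.58 ± 0.18, adjusted p = 0.00298). Acat2 was at 37.3, 41.7 and 34.1 CPM against 16.9, 21.2 and 15.4 (1.47 ± 0.21, adjusted p = 0.0047). Squalene epoxidase, Sqle (chr15:59315077-59331192), was at 190, 256 and 213 CPM against 98.7, 130 and 102 (1.40 ± 0.20, adjusted p = 0.00483). In all 5 genes each K8YFP+ library lay above each K8YFP- library. The log2 rises of the 19 ran from 0.81 to 2.36, with Nsdhl at 1.83 ± 0.42, Mvd at 1.78 ± 0.27 and Fdft1, which joins farnesyl units into squalene, at 1.64 ± 0.27.

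The regulators split. Srebf2 was at 345, 370 and 367 CPM in K8YFP+ and at 228, 294 and 296 CPM in K8YFP-, and rose by 0.81 ± 0.15 (adjusted p = 0.0113) without overlap. Insig1 was at 140, 154 and 228 CPM against 111, 202 and 145, which overlap (0.59 ± 0.25, adjusted p = 0.124). Srebf1 (0.13 ± 0.13), Scap (0.11 ± 0.12, at 128, 99.6 and 133 CPM against 145, 139 and 154) and Insig2 (-0.05 ± 0.27) did not pass either. Ggps1, which leads to geranylgeranyl diphosphate and away from sterols, was at -0.24 ± 0.24, and Lbr at 0.06 ± 0.12. Fold changes here run above CPM ratios because the test rescales libraries by the trimmed mean of M values (TMM). Hmgcs1, for example, was at 892 ± 163 CPM (706, 1011 and 959) against 596 ± 122 (490, 730 and 568), which overlap, with a fitted log2 fold of 1.00 ± 0.23.

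**Figure D3:**
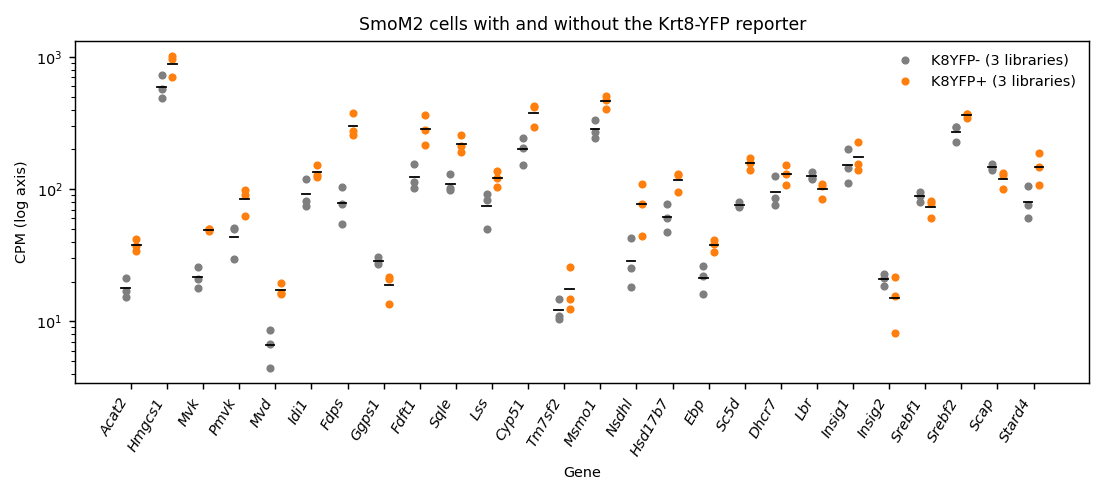
CPM on a log axis of each of the 26 members in the 3 K8YFP+ and 3 K8YFP- libraries, with points for libraries and lines for group means. In Fdps, Sc5d, Mvk, Acat2 and Sqle the 2 groups are apart, whereas in Insig1 and Insig2 they overlap.

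Same-numbered libraries of this pair deviated together, and with replicate number as a block Tm7sf2 (log2 fold 0.90, adjusted p = 0.0116) and Insig1 (0.60, adjusted p = 0.0273) were also called, which made 21 members. K8YFP+ replicate 2 had the fewest counts, the highest mitochondrial share and 31.7 CPM of summed adipocyte markers, against at most 2.09 CPM in the other 5 libraries. Of these 5 markers 3, Adipoq, Lep and Plin1, had no count in any K8YFP+ library, so the sum rests on Cidec and Fabp4. With K8YFP+ replicate 2 left out 16 members were called, and with counts thinned to its total 19. Leaving out K8YFP+ replicate 3 or K8YFP- replicate 3 gave 13.

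Other markers differed between these cells too. Summed squamous differentiation markers were at 20608 to 31118 CPM in K8YFP+ against 6105 to 8418 in K8YFP- (6 of 6 higher), and summed basal markers at 2266 to 3623 against 7104 to 10627 CPM. Cell-cycle genes summed to 237 to 599 CPM against 1167 to 1339, fibroblast markers to 56.7 to 523 against 11.1 to 68.0, and muscle markers to 6.55 to 104 against 3.28 to 6.96 CPM. Their part in the rise of the sterol genes was not tested. Krt8 itself was at 10.2 to 39.8 CPM against 0.235 to 3.32 CPM.

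The fatty acid synthesis list moved in the same comparison, with 8 of 13 genes higher and 2 lower. Its leading genes were the malic enzyme Me1 (log2 fold 1.88), Mid1ip1 (1.59) and the ATP citrate lyase Acly (0.84), which makes the acetyl-CoA that both routes use. Of 10 isoprenoid branch genes and 11 efflux and storage genes 0 passed by edgeR. At an unadjusted p under 0.05 there were 3 in each, and DESeq2 called 0 and 2. Among the 6 SREBP processing genes Erlin1 rose (0.65) and Mbtps1 fell (-0.73).

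Sox9cKO against SmoM2 asks what loss of the transcription factor Sox9 changes in these cells. By edgeR 0 of the 26 members passed, while 2.66% of all genes did (1.18% higher and 1.48% lower). At an unadjusted p under 0.05 there were 5 members, and DESeq2 called 1, Idi1. The isomerase Idi1 was at 62.7, 89.4, 104 and 86.3 CPM in Sox9cKO and at 44.0, 59.8 and 72.7 CPM (lowest, median and highest) in SmoM2, with overlap. Its log2 fold was 0.60 ± 0.17 (adjusted p = 0.0807). The phosphomevalonate kinase Pmvk was at 0.66 ± 0.23 (adjusted p = 0.143), Insig1 at 0.46 ± 0.18 and Scap at 0.26 ± 0.11. In a fit of all 14 groups Pmvk, Idi1 and Scap passed, all higher in Sox9cKO. In the companion lists Fads2 rose (0.71) and the sterol exporter Abcg1 fell (-1.63).

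The 7w cells were set against the 3w cells within each gate. In EpCAM-high cells 19 of 26 members were higher at 7w and 0 lower, where 22% of all genes were called higher, 19.4% lower and 41.4% in either direction. In EpCAM-low cells 23 were higher and 0 lower, where 19.5% of all genes were called higher, 18.4% lower and 38% in either direction. The 19 of the first gate were all among the 23 of the second. Median log2 folds were 0.91 (1.88-fold) and 1.37 (2.58-fold), beside 0.02 over all genes in both.

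Lss (chr10:76531588-76557138) rose most. In EpCAM-high cells it was at 12.4, 17.9, 15.1 and 13 CPM at 3w and at 71.2, 57.3, 46.7 and 60.7 CPM at 7w (log2 fold 1.96 ± 0.21, adjusted p = 2.74e-07). In EpCAM-low cells it was at 19.1, 25.7, 20.8 and 16.3 CPM at 3w and at 126, 90.3, 77.8 and 103 CPM at 7w (2.22 ± 0.21, adjusted p = 5.0e-08). At either gate the lowest 7w library was above the highest 3w library. Hmgcs1 was at 210 to 247 CPM at 3w and 445 to 620 CPM at 7w in EpCAM-high cells (1.22 ± 0.21). In EpCAM-low cells it was at 246 to 268 and 573 to 893 CPM (1.48 ± 0.21). Sqle also rose, at 1.17 ± 0.20 and 1.63 ± 0.21, and so did Dhcr7, the reductase of the last step, at 1.20 ± 0.16 and 1.31 ± 0.17.

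Insig1 (chr5:28071363-28078662), the sterol-responsive anchor of Scap, was at 39.6, 35.7, 34.0 and 32.7 CPM in 3w EpCAM-high cells and at 138, 131, 99.5 and 138 CPM in 7w EpCAM-high cells. It was at 47.8, 43.4, 40.4 and 42.9 CPM in 3w EpCAM-low and at 156, 143, 123 and 179 CPM in 7w EpCAM-low cells. It rose by 1.78 ± 0.24 and 1.73 ± 0.24 on the log2 scale (adjusted p = 4.06e-06 and 6.34e-06). Insig2, its paralogue, did not pass, with -0.00 ± 0.11 in EpCAM-high and -0.28 ± 0.12 in EpCAM-low cells. Srebf2 rose in both gates. It was at 176 to 192 CPM in 3w and 236 to 286 CPM in 7w EpCAM-high cells (0.44 ± 0.11), and at 153 to 179 CPM in 3w and 297 to 339 CPM in 7w EpCAM-low cells (0.85 ± 0.11). Srebf1 passed in EpCAM-low cells (0.30 ± 0.09, adjusted p = 0.00966) and not in EpCAM-high cells (0.20 ± 0.09, adjusted p = 0.0683), and its difference between gates is given with the interaction below. Scap rose by 0.33 ± 0.08 and 0.41 ± 0.08.

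**Figure D4:**
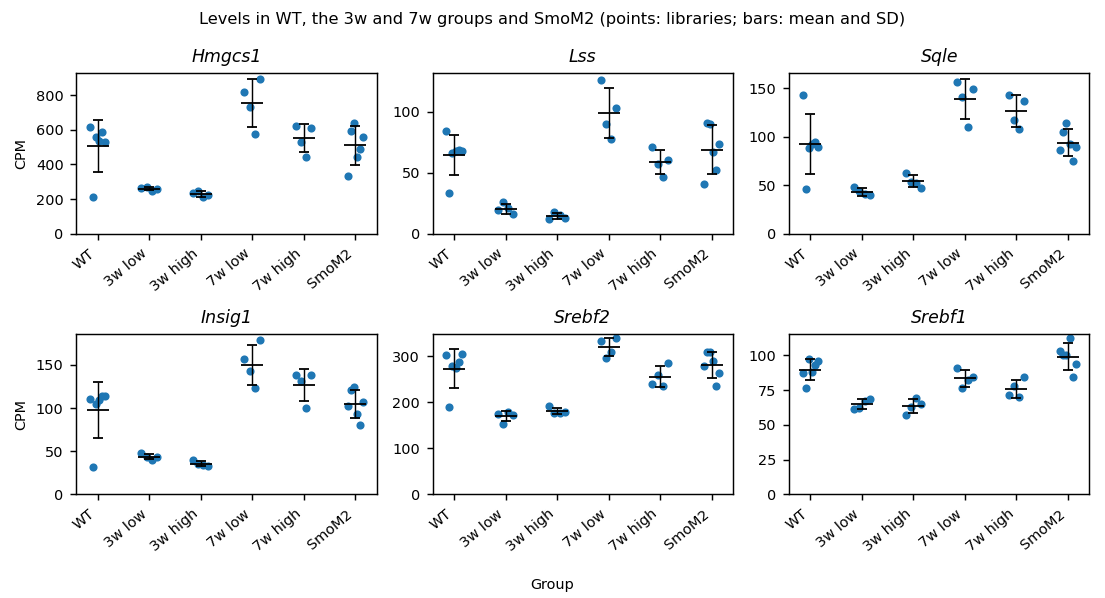
CPM of Hmgcs1, Lss, Sqle, Insig1, Srebf2 and Srebf1 in WT, in 3w and 7w cells of either gate and in SmoM2, with points for libraries and bars for mean ± SD. Lss, Hmgcs1, Sqle and Insig1 are lower in all 3w libraries than in all 7w libraries of the same gate.

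Tm7sf2, Ggps1 and Insig2 passed in neither gate. In each gate 23 members had all 7w libraries above all 3w libraries, against 24.6% of all genes in EpCAM-high and 23.9% in EpCAM-low cells. Insig2 had all 7w libraries below all 3w libraries in EpCAM-low cells (16.1 to 16.8 against 17.6 to 21.5 CPM), as did 17.4% of all genes. Of 13 fatty acid synthesis genes, 10 were higher at 7w in EpCAM-high cells and 9 in EpCAM-low cells and 0 lower, with Scd2 at 1.42 and 1.86, Scd1 at 1.15 and 1.86 and the synthase Fasn at 0.92 and 1.37. Isoprenoid branch genes went both ways (3 higher and 4 lower, then 3 higher and 2 lower of 10). Squamous differentiation markers were higher at 7w as well (5 of 6 and 6 of 6 members, summed 3158 to 3677 against 5030 to 6925 CPM in EpCAM-high and 5155 to 5939 against 13147 to 15329 CPM in EpCAM-low cells). Cell-cycle genes were also higher at 7w (9 of 15 in EpCAM-high and 6 of 15 in EpCAM-low cells, 0 lower). Of the 6 tested Hedgehog genes, 6 were higher in EpCAM-high cells, whereas 2 were higher and 3 lower in EpCAM-low cells. The part of these markers and genes in the result was not tested.

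Between gates at 3w, 0 of 26 members passed by edgeR, where 15.2% of all genes did (7.37% higher and 7.84% lower). At an unadjusted p under 0.05 there were 3 members (Lss, Sc5d and Dhcr7), and DESeq2 called 0. Same-numbered libraries deviated together, and with replicate number as a block 1 member, Dhcr7, passed (log2 fold 0.45, adjusted p = 0.049). At 7w, 6 members were lower in EpCAM-high than in EpCAM-low cells and 0 were higher, while 16.8% of all genes were called lower, 15.5% higher and 32.3% in either direction. The median log2 fold was -0.27, beside -0.02 over all genes.

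Lss was at 71.2, 57.3, 46.7 and 60.7 CPM in 7w EpCAM-high and at 126, 90.3, 77.8 and 103 CPM in 7w EpCAM-low cells (-0.80 ± 0.19, adjusted p = 0.00256). The mevalonate decarboxylase gene Mvd (chr8:122433601-122443422) was at 3.79, 4.27, 2.35 and 4.32 CPM against 11.4, 7.11, 6.13 and 8.57 (-1.22 ± 0.31, adjusted p = 0.00356). Srebf2 was at 239, 260, 236 and 286 CPM against 333, 297, 310 and 339 (-0.37 ± 0.11, adjusted p = 0.00947). In these 3 genes no EpCAM-high library reached the lowest EpCAM-low library, which held for 14.6% of all genes. Fdft1 was at 118, 104, 82.1 and 113 CPM against 201, 162, 137 and 182 (-0.75 ± 0.22, adjusted p = 0.0117). Fdps was at 81.1, 58.0, 48.4 and 73.1 CPM against 140, 95.0, 88.4 and 119 (-0.81 ± 0.25, adjusted p = 0.0137). Fdft1 and Fdps, which act on either side of farnesyl diphosphate, were likewise apart. Nsdhl was the sixth, at -0.63 ± 0.22 (adjusted p = 0.0292), and lost its call in 6 of 14 other settings.

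Whether the difference between gates itself changed from 3w to 7w was tested by the interaction of gate and time. By edgeR 0 members passed, where 2.31% of all genes did (1.55% higher and 0.759% lower), DESeq2 called 0, and at an unadjusted p under 0.05 there were 2, Mvd (-1.06 ± 0.48) and Srebf2 (-0.41 ± 0.15). Srebf1 was at -0.10 ± 0.13. The gate difference of the 6 members called at 7w is therefore not shown to differ from that at 3w. At 7w the efflux and storage list went the other way, with 5 of 12 higher in EpCAM-high cells, led by Soat1 (2.91) and Stard5 (0.87), and 1 lower, Ch25h (-1.13). Of 13 fatty acid genes 4 were lower, among them Scd2 (-0.85), Mid1ip1 (-0.56) and Fasn (-0.54). Soat1 also passed in the interaction (1.5). Squamous differentiation markers were lower in 7w EpCAM-high cells (2 of 6), and their part was not tested.

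The 4 time-series groups were each compared with the same 6 WT libraries, so these comparisons share their controls. In 3w EpCAM-high cells 23 members were lower and 1, Ggps1, was higher, where 30.7% of all genes were called lower, 28.2% higher and 58.9% in either direction. In 3w EpCAM-low cells 22 were lower and 1, again Ggps1, was higher, where 24.3% were called lower, 23.1% higher and 47.4% in either direction. The median log2 folds were -1.11 and -0.97. Lss was lowest in the first (-2.26 ± 0.20), and Dhcr7 in the second (-1.82 ± 0.15). Lbr and Insig2 passed in neither. Insig1 was at -1.57 ± 0.23 and -1.22 ± 0.22, Srebf2 at -0.71 ± 0.10 and -0.75 ± 0.10, and Srebf1 at -0.61 ± 0.08 and -0.53 ± 0.08. In CPM, 12 members in EpCAM-high and 10 in EpCAM-low cells lay below every WT library, against 15.6% and 12.4% of all genes. The low WT replicate 2, at 1493 CPM summed over the members, came near the 3w libraries. All 6 squamous differentiation markers were also lower than in WT in both 3w groups, and their part was not tested.

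At 7w fewer members differed from WT. In EpCAM-high cells 2 were higher (Ggps1, 0.86 ± 0.13, and Idi1, 0.59 ± 0.19) and 7 lower, where 27.7% of all genes were called higher, 29.9% lower and 57.6% in either direction. The lower ones ran from Mvd (-1.18 ± 0.28) and Fdps (-0.80 ± 0.23) to Srebf2 (-0.26 ± 0.10), with Srebf1 at -0.41 ± 0.08. Srebf2 lost its call in 9 of 17 other settings, among them the summed WT libraries and the replicate block. Ebp, also called lower, lost its call in 8 of 17. In EpCAM-low cells 6 were higher, Acat2 (0.70 ± 0.21), Ggps1 (0.65 ± 0.13), Idi1, Cyp51, Lss and Sqle, and 3 lower, Dhcr7 (-0.51 ± 0.14), Ebp and Srebf1 (-0.22 ± 0.08), where 19.4% of all genes were called higher, 21% lower and 40.4% in either direction. The EpCAM-low count was 14 without WT replicate 1 and 5 without 7w EpCAM-low replicate 1 or 7w EpCAM-low replicate 4. In these cells Sqle lost its call in 10 of 17 other settings, Srebf1 in 8 and Ebp in 7. Ggps1, the branch to geranylgeranyl diphosphate, was thus called higher than WT in all 4 groups, with log2 folds of 0.42 to 0.86.

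The squamocolumnar junction joins stomach-type columnar cells to squamous cells, both from mice without SmoM2. Their markers differed as labelled: summed stomach markers were at 14124 to 23880 CPM in columnar and 2.57 to 3.69 CPM in squamous cells. Here 7 members were higher in columnar cells and 10 lower, where 39.2% of all genes were called higher, 35.2% lower and 74.4% in either direction, so the share of members called (17 of 26) was below that of all genes. The median log2 fold was -0.12, beside 0.08 over all genes. Of the 9 late-step genes 6 were lower and 1 higher in columnar cells, and of the 5 regulators 3 were higher and 0 lower.

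The methyl sterol oxidase gene Msmo1 (chr8:64718139-64733792) was at 110, 110, 102 and 124 CPM in columnar and at 212, 209 and 200 CPM in squamous cells (-1.20 ± 0.08, adjusted p = 1.52e-07). Hsd17b7, which acts with it in removing the methyl groups of lanosterol, was at 23.7, 23.5, 20.3 and 21 CPM against 49.7, 52.3 and 48.6 (-1.49 ± 0.11, adjusted p = 1.8e-07). Sc5d was at 75.9, 72.5, 67.4 and 82.6 CPM against 109, 136 and 122 (-1.02 ± 0.10, adjusted p = 2.58e-06). These enzymes were lower in each columnar library than in each squamous one, as were 26.9% of all genes. Dhcr7 was at 32.0, 31.5, 29.2 and 27.1 CPM against 45.1, 52.3 and 54.3 (-1.06 ± 0.11, adjusted p = 4.32e-06). Pmvk was at 14.8, 13.3, 8.87 and 10.7 CPM against 28.5, 28 and 26.5 (-1.51 ± 0.16, adjusted p = 5.49e-06). Of the late steps only Tm7sf2 was higher in columnar cells (0.91 ± 0.13).

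Among regulators Insig2 was at 41.2, 37.8, 42.7 and 44.6 CPM in columnar and at 12.7, 16.9 and 12.5 CPM in squamous cells (1.25 ± 0.14, adjusted p = 7.87e-06). Insig1 was at 63.0, 48.2, 66.3 and 65.4 CPM against 29.9, 39.2 and 22.1 (0.68 ± 0.18, adjusted p = 0.00524). Srebf1 (chr11:60199089-60222581) was at 127, 114, 103 and 108 CPM against 59.1, 73.3 and 67.3 (0.45 ± 0.10, adjusted p = 0.00193). All 3 were higher in every columnar library than in every squamous one, as were 48.9% of all genes. Srebf2 did not pass (0.08 ± 0.09), nor did Scap (-0.13 ± 0.10). With the fold required to exceed 0.5 on the log2 scale, 10 members were called. Immune markers summed to 183 to 416 CPM in columnar against 14.7 to 21 CPM in squamous cells. Of the 4 tested, 2 were higher and 2 lower in columnar cells. Of 15 cell-cycle genes 12 were lower in columnar cells. The part of these markers and genes was not tested.

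In the companion lists of the junction, Soat1 (4.59) and the exporter Abcg1 (3.59) were higher in columnar cells and Mylip (-1.41) lower, with 5 higher and 2 lower of 12. Fatty acid genes went both ways, 7 higher and 6 lower of 13, with Fads2 at 3.35 and Elovl6 at -1.49. Of the Insig-degradation genes Erlin2 (1.41) and Erlin1 (1.29) were higher.

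Embryonic oesophagus at E13.5 was compared with adult WT cells, which come from another strain and gate. In this comparison 19 members were lower in the embryo and 2 higher, where 27.8% of all genes were called lower, 36.1% higher and 64% in either direction. The median log2 fold was -0.72, beside 0.16 over all genes. Scap was at 64.5 and 71.7 CPM in the embryo and at 117, 129 and 150 CPM (lowest, median and highest) in WT (-1.46 ± 0.12, adjusted p = 3.9e-14). Ebp, the sterol isomerase gene on the X chromosome, was at 8.86 and 3.39 CPM against 19.2, 20.3 and 25.9 (-2.30 ± 0.24, adjusted p = 3.69e-11). Neither overlapped WT. Msmo1 was at 125 and 79.3 CPM against 130, 247 and 272 (-1.69 ± 0.23, adjusted p = 2.95e-08). Dhcr7 was at 40.8 and 20.3 CPM against 43.2, 65.6 and 73.0 (-1.56 ± 0.22, adjusted p = 3.91e-08). Both lay below WT, although the low WT replicate 2 came near them. These 4 of the 26 members were lower in every embryo library than in every WT library, as were 15.1% of all genes. Ggps1, at 46.1 and 44.8 CPM against 13.7, 15.4 and 22.6, went the other way (0.94 ± 0.17, adjusted p = 7.62e-06), as did Acat2 (0.61 ± 0.26). Acat2 lost its call in 8 of 15 other settings, among them without WT replicate 2, 3, 4, 5 or 6 or without Embryo replicate 1, with log2 folds of 0.06 to 0.92. All 6 squamous differentiation markers were lower in the embryo (summed 250 to 404 CPM). Simple columnar markers summed to 983 to 1254 CPM against 5.77 to 8.02 in WT, fibroblast markers to 162 to 346 against 17.5 to 108, and muscle markers to 16.7 to 23 against 0.53 to 1.72 CPM. Their part was not tested.

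The SREBP and Insig genes of the embryo show how the scale matters. Srebf1 was at 105 and 95.3 CPM against 76.5, 90.3 and 97.5 in WT, which is no lower, yet its fitted log2 fold was -0.37 ± 0.11 (adjusted p = 0.00513). Srebf2 was at 290 and 260 CPM against 191, 284 and 306 (-0.51 ± 0.14, adjusted p = 0.00113). Insig2 was at 16.2 and 18.7 CPM against 12.2, 16.7 and 19.6 (-0.43 ± 0.19, adjusted p = 0.0454). All 3 genes overlap WT in CPM, and their folds depend on how the embryo libraries are rescaled. RLE size factors, the scaling of DESeq2, moved the median of all genes up by 0.105, and Srebf1 and Srebf2 still passed whereas Insig2 did not (adjusted p = 0.125). Insig2 lost its call in 12 of 15 other settings, among them no filter, DESeq2 and either Embryo library left out. Srebf1 lost its call in 3 of 15 and Srebf2 in 1. Of the members, 17 passed under RLE.

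K8YFP+ cells were also set against the junction columnar cells, which carry the same reporter but no SmoM2. Of the 26 members, 22 were higher in K8YFP+ cells and 1 lower, where 27.4% of all genes were called higher, 33.4% lower and 60.8% in either direction. The median log2 fold was 1.68 (3.21-fold), beside -0.15 over all genes. Pmvk (63.1, 99.0 and 90.4 CPM against 14.8, 13.3, 8.87 and 10.7) differed most, at 3.22 ± 0.27. Hsd17b7 was at 2.83 ± 0.23, Dhcr7 at 2.54 ± 0.19 and Insig1 at 1.95 ± 0.28. Insig2 was the one lower member, at 21.6, 8.09 and 15.5 CPM against 41.2, 37.8, 42.7 and 44.6 (-0.96 ± 0.19, adjusted p = 3.01e-05). The paralogues Insig1 and Insig2 thus differed in direction here. Tm7sf2, Ggps1 and Srebf1 did not pass. All 6 squamous differentiation markers were higher in K8YFP+ cells here too (20608 to 31118 against 72.6 to 126 CPM), and their part was not tested.

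Gut was compared with stomach, both sorted on YFP alone with 2 libraries each. Here 3 members were lower in gut and 1 higher, where 15.4% of all genes were called lower, 15.6% higher and 31% in either direction. Scap was at 31.7 and 36.3 CPM in gut and at 176 and 172 CPM in stomach (-2.12 ± 0.15, adjusted p = 1.79e-15), and it kept its call in all 9 other settings. Srebf2 was at 182 and 150 CPM against 347 and 292 (-0.68 ± 0.17), and Srebf1 at 60.6 and 61.9 CPM against 112 and 91.5 (-0.49 ± 0.14). All 3 were lower in both gut libraries than in both stomach libraries, as were 34% of all genes. Stard4 was at 93.4 and 134 CPM in gut against 71.1 and 52.9 CPM in stomach (1.10 ± 0.39, adjusted p = 0.0266). It lost its call whenever any 1 of the 4 libraries was left out. Srebf1 lost its call in 4 of 9 other settings and Srebf2 in 2 of 9. The count was 2 without Stomach replicate 1 or Gut replicate 2. Immune markers summed to 543 and 648 CPM in gut against 3.15 and 18.8 CPM in stomach, and their part was not tested.

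**Figure D5:**
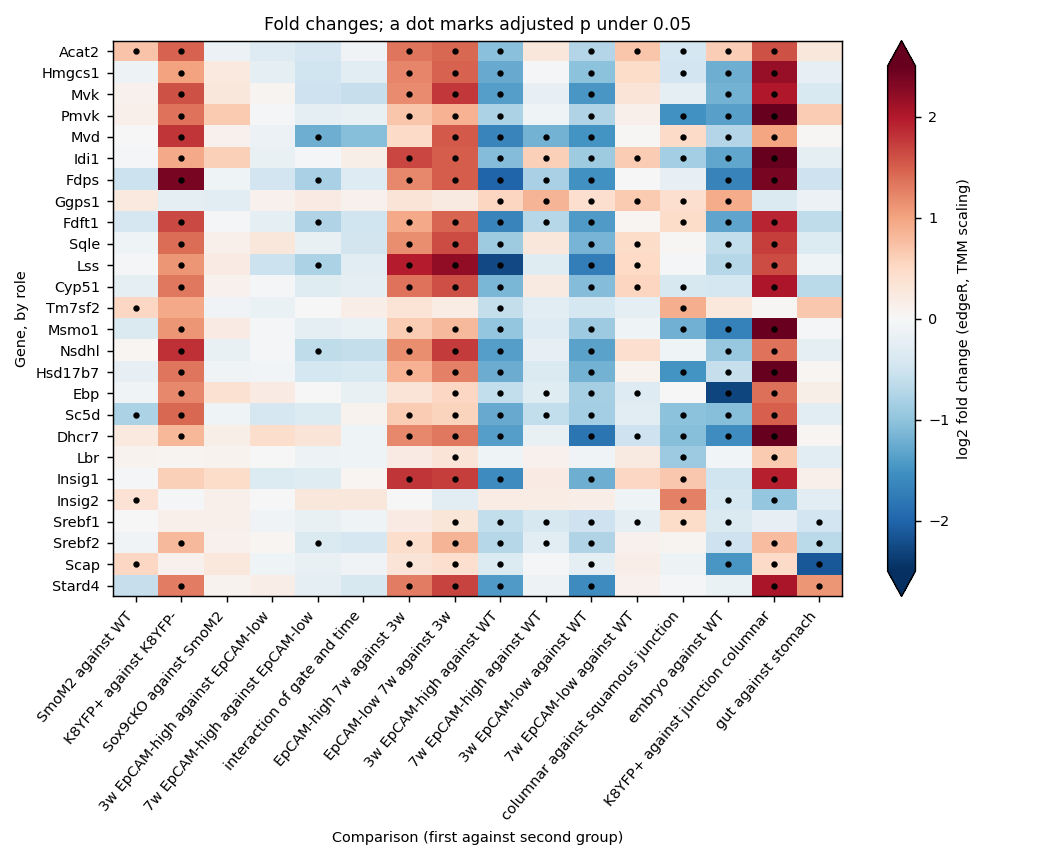
Log2 folds of the 26 members (rows, by role) in the 16 comparisons (columns), with a dot where the adjusted p was under 0.05. The columns of K8YFP+ against K8YFP- and of 7w against 3w hold 19, 19 and 23 higher calls, whereas those of Sox9cKO, the 3w gates and the interaction hold 0.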

How the data were processed

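Total RNA libraries (NuGEN Ovation Solo, NovaSeq) were made from sorted cells, per the labels' protocols. The deposited values are read counts per gene. For them the submitters' processing notes name STAR 2.5.3a, HTSeq and edgeR with the builds GRCm38 and mm10, and the strand setting is not given in the sources used here. Symbols, coordinates and merged exon lengths came from GENCODE M21. Members, although taken by name, and companion lists and tests were chosen with earlier results of these data known. CPM are counts over the library total. Genes were tested two-sided on counts with edgeR 4.0.16 in R 4.3.3 (quasi-likelihood F test, TMM scaling, filterByExpr with a minimum count of 10 and total of 15), with Benjamini-Hochberg adjustment over all genes and a threshold of 0.05. Errors of folds are SE, and of CPM SD. SmoM2 against WT, the reporter groups, Sox9cKO and the junction were fitted alone, WT with the 3w and 7w groups in 1 fit, and the remaining comparisons in a fit of all 14 groups. The code was tested on simulated data. Values in every library are given for the 5 called members with the smallest adjusted p per main comparison and for called SREBP and Insig genes, with others by counts, ranges or folds. Up to 3 called genes of smallest adjusted p are named per companion list. The SREBP processing list of SmoM2 against WT is not reported here. No label links a replicate number to an animal. Residuals of same-numbered libraries correlated above 0.1 in every pair for the reporter groups (0.291 to 0.409) and for the 3w gates (0.14 to 0.306), which counted as paired. Alternatives were DESeq2 1.42.0, RLE size factors, no filter, a fit of all groups, summed WT libraries, thinning, a minimum fold, a replicate block and each library left out.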

Additional observations from a re-analysis of the deposited data

Results flagged for a closer look

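Among 208 sets of a member's values in a group of 4 to 6 libraries, 10 held 1 library far from the rest, as the gap to the nearest other library over the whole range was above Dixon's 95% critical value for that number of libraries. Chance alone would give this in about 5% of independent sets. Sets that share a library are not independent, and most flags fell in WT replicates 1 and 2. The number of flags is therefore not read against chance.

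In WT, replicate 2 was low in 5 genes. Insig1 was at 31.4 CPM there against 104 to 114 in the others (gap 0.882 of the range), and Hmgcs1 at 210 against 527 to 619 CPM (0.776). Srebf2 was at 191 against 275 to 306 CPM (0.732), Msmo1 at 130 against 230 to 272 CPM (0.703), and Lss at 33.7 against 65.8 to 84.4 CPM (0.634). WT replicate 1 was high in 3 genes: Acat2 at 27.6 against 10.1 to 13.9 CPM (0.784), Nsdhl at 48.0 against 18.9 to 26.7 CPM (0.733) and Ebp at 25.9 against 19.2 to 21.1 CPM (0.724).

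Outside WT, Sqle was at 75.7 CPM in Sox9cKO replicate 1 against 105 to 108 in the other 3 libraries (0.9). Tm7sf2 was at 11.9 CPM in 7w EpCAM-low replicate 1 against 8.30 to 8.74 CPM (0.878).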

How the results depend on the processing

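Under no alternative did a called member change direction. For SmoM2 against WT, 9 members were called in a fit of all 14 groups, 3 with WT libraries 3 and 5, and 4 and 6, summed, and 2 to 8 with 1 library left out, against 5. For Sox9cKO against SmoM2, 1 was called with no filter, 3 in the fit of all groups and 1 by DESeq2, against 0. Between the 3w gates 3 were called with no filter and 1 with the replicate block. For 7w EpCAM-low against WT, a minimum log2 fold of 0.5 left 5 of 9, and leaving out 1 library gave 5 to 14. The minimum fold left 10 of 17 at the junction. The replicate block left 11 of 21 members in the embryo and 2 of 4 in gut against stomach, where leaving out 1 library gave 2 to 6. It gave 21 members for the reporter groups, and in the 7w gates 5 against 6, where numbers did not count as pairs (correlations of 0.051 to 0.167, each library highest with its own number). With the WT pairs summed, 24, 8, 23 and 6 members were called in 3w EpCAM-high, 7w EpCAM-high, 3w EpCAM-low and 7w EpCAM-low cells against WT, and 19 in the embryo, against 24, 9, 23, 9 and 21.

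Counts over all genes moved as well. For the reporter groups they were 3110, 6733 in the fit of all groups, 4785 with the replicate block and 1016 to 2263 with 1 library left out. For Sox9cKO they were 454, and 767 with no filter, 1524 in the fit of all groups, 125 with the replicate block, 1206 by DESeq2 and 207 to 2153 with 1 library left out (2153 without Sox9cKO replicate 2). The fit of all groups gave 1378 of 2625 for the 3w gates and 42 of 398 for the interaction. The minimum fold left 4541 of 6966 for 7w EpCAM-low against WT, and the replicate block left 7841 of 14311 in the embryo and 2316 of 6938 in gut against stomach. The cause of these shifts was not tested.

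Groups of 2 libraries (embryo, stomach and gut) take their spread from the other groups, and the 1.61 M counts of the shallowest K8YFP+ library limit its low members, such as Insig2 at 8.09 CPM.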
